A study of Mus musculus with 8 samples.

Results

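Of 381 assays listed on the microRNA cards of this liver fibrosis experiment, those for miR-451 and miR-486 are described here. These 2 assays detect miRNAs known for their abundance in red blood cells. They were taken by the name of the assay, without its species prefix and numeric suffix, and not by their values. Both had a determined value on all 8 cards and a mean threshold cycle below 35, so both were among the 166 assays tested. Total RNA came from whole livers of female C57B6 mice that were 4 weeks old when treatment began. There were 4 groups with 2 cards each, untreated liver and liver after 1, 4 or 8 weeks of the hepatotoxin carbon tetrachloride (CCl4), which was diluted in corn oil and injected into the peritoneum 2 times a week. The dose is given as 1 ml/kg in the methods and as 1 mg/kg in the labels. The labels mention no vehicle injections in the untreated group and no age at which its livers were taken, so that time on CCl4 and age cannot be told apart. They also do not say whether the 2 replicates of a group were separate mice. The design text counts 4, 3 and 2 mice at 1, 4 and 8 weeks against 2 cards each, and whether RNA was pooled or mice were left off the cards is not given in the sources used here. The SD and the p-values then measure only the spread between these cards, which may be technical.

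miR-451 is made in erythroid cells from a short hairpin that Dicer does not cut. Argonaute2 slices it instead and the product is trimmed, so the mature strand runs through the stem into the loop. Its gene lies beside that of miR-144, and both are switched on by the erythroid transcription factor GATA1. miR-486 is made from within Ank1, the gene for the red cell membrane protein ankyrin 1, and is abundant both in erythroid cells and in cardiac and skeletal muscle. In liver, the sinusoids always hold blood, so that miRNAs of circulating cells are measured along with those of the tissue.

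A RefSeq mature sequence was matched for 1 of the 2 members. It is shown because its seed, bases 2 to 8 in capitals, and its unusual pairing set this miRNA apart.
mmu-miR-451a: aAACCGUUaccauuacugaguu
This strand is 22 bases long and lies at chr11:78073186-78073207 on the plus strand of GRCm38.p6, at bases 17 to 38 of a hairpin of 72 bases. Bases 2 to 17 of the mature strand pair without interruption with the rest of the hairpin, a run of 16 bases. Its seed was held by 1 of 1679 mature miRNA names in the RefSeq table, its own. The hairpins of Mir144 and Mir451a are 99 bases apart in that annotation, and Mir486 lies within Ank1.

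Each well of a card holds a quantitative PCR for 1 small RNA, and the threshold cycle (Ct) is the cycle at which its signal crosses a threshold. A Ct lower by 1 corresponds to about 2 times the template. The cards had 193 to 235 determined assays each, and their mean Ct over the 149 assays that stayed below Ct 35 throughout ran from 27.5 to 29.8, the faintest being replicate 2 at 4 weeks. Each value below is this mean minus the Ct of the assay, called the centred value, on a log2 scale on which a higher value is more RNA relative to the 149 assays. Levels of different assays are not compared, since their efficiencies differ. The hepatocyte miRNA miR-122 was determined on every card, at Ct 21.95 to 24.16, as in liver.

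miR-451 was lowest after 1 week of CCl4 and higher after 4 and 8 weeks. The untreated cards had a Ct of 30.51 and 30.68, the 1-week cards 32.01 and 31.92, the 4-week cards 29.86 and 31.93 and the 8-week cards 29.60 and 30.14. After centring, the untreated cards were at -2.16 and -2.69, the 1-week cards at -3.24 and -3.32, the 4-week cards at -1.61 and -2.16 and the 8-week cards at -2.12 and -1.26. Both 1-week cards lay below all other cards, and the ranges of the groups overlapped only between 4 and 8 weeks. Groups of 2 cards can easily separate without a real difference. The share of all tested assays whose groups separate was not determined, here or below, so separation is given as description only. The gap was 0.56 between the 1-week and untreated cards, but 0.01 between the untreated and 4-week cards and 0.05 between the untreated and 8-week cards. Before centring, replicate 2 at 4 weeks had a Ct between those of the 1-week cards, and its place with the higher cards comes from its faint card mean.

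miR-486 showed no such order. The untreated cards had a Ct of 27.37 and 27.38, the 1-week cards 27.91 and 27.51, the 4-week cards 27.86 and 28.95 and the 8-week cards 26.79 and 27.92. Their centred values were 0.98 and 0.61, then 0.86 and 1.09 for the 1-week cards, 0.39 and 0.82 for the 4-week cards and 0.69 and 0.96 for the 8-week cards. All 8 cards thus lay within 0.39 to 1.09, and the groups overlapped in every pair except 1 and 4 weeks, which were 0.03 apart. The replicate SD estimated with limma was 0.31 for miR-486 and 0.39 for miR-451, against a median of 0.38 over all tested assays.

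**Figure D1:**
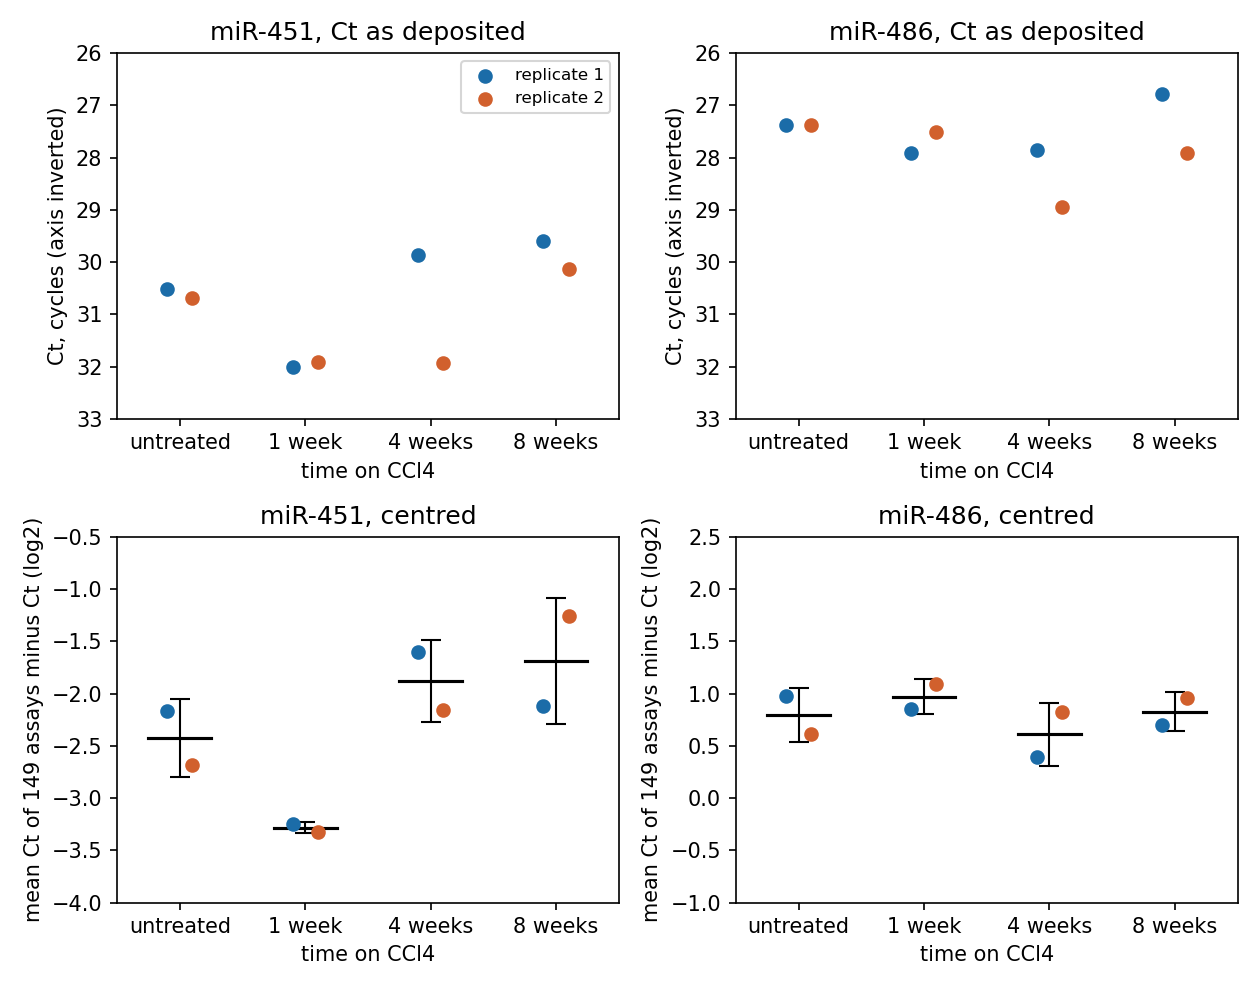
Ct as deposited (upper panels, cycles, inverted so that more RNA is higher) and centred value (lower panels, log2) of miR-451 and miR-486 on each card, by time on CCl4; points are cards, black bars the group mean with SD (n = 2). Both 1-week cards are the lowest for miR-451 after centring, at -3.24 and -3.32, while miR-486 stays between 0.39 and 1.09.

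Against untreated liver, neither member passed the test at any time. Relative to the untreated mean, miR-451 was at 0.543 ± 0.0208 (SD, n = 2) on the 1-week cards, 1.46 ± 0.389 on the 4-week cards and 1.71 ± 0.698 on the 8-week cards. The log2 differences, each with a standard error of 0.39, were -0.86 (95% interval -1.77 to 0.05, adjusted p = 0.129 by limma with Benjamini-Hochberg adjustment over 166 assays), 0.55 (-0.37 to 1.46, adjusted p = 0.317) and 0.74 (-0.17 to 1.65, adjusted p = 0.255). In the same comparisons 32.5%, 30.1% and 3.01% of all tested assays were called at an adjusted p of 0.05. In each comparison some fits without 1 card called more assays and others fewer. With fewer cards to estimate the spread, a fall need not come from the card left out. The 54 assays called at 1 week became 15 without untreated replicate 1 and 28 and 23 without the 1-week replicates 1 and 2, the 50 at 4 weeks became 26 and 22 without the untreated replicates 1 and 2 and 32 without 4-week replicate 2, and the 5 at 8 weeks became 1 without either untreated card, 2 without either 1-week card and 0 by limma without either 8-week card (45 and 26 at an unadjusted p of 0.05). Each interval for miR-451 includes 0, with most of its width below 0 at 1 week and above 0 later.

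On the same scale miR-486 was at 1.13 ± 0.128 (SD, n = 2) on the 1-week cards, 0.882 ± 0.185 on the 4-week cards and 1.02 ± 0.132 on the 8-week cards. Its log2 differences, each with a standard error of 0.31, were 0.18 (95% interval -0.54 to 0.89, limma adjusted p = 0.664), -0.18 (-0.90 to 0.53, adjusted p = 0.683) and 0.03 (-0.68 to 0.75, adjusted p = 0.947). Differences within those intervals are not excluded for miR-486.

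Between the treated groups, miR-451 was higher at both later times than at 1 week. The difference was 1.40 at 4 weeks (95% interval 0.49 to 2.31, limma adjusted p = 0.0242), or 2.64-fold (1.41 to 4.97), with both 4-week cards above both 1-week cards. At 8 weeks it was 1.60 (0.68 to 2.51, adjusted p = 0.0320), or 3.02-fold (1.61 to 5.68), again with both cards above both 1-week cards. miR-451 was thus among the 47% of assays called between 4 weeks and 1 week and the 24.1% between 8 weeks and 1 week. These shares also changed when a card was left out, with fewer cards to estimate the spread. The 78 assays called at 4 weeks against 1 week were 41 without 1-week replicate 1, 37 without 1-week replicate 2 and 30 without 4-week replicate 2. The 40 at 8 weeks against 1 week were 9 and 4 without these 1-week cards and 4 without 8-week replicate 2 (42 and 43 at an unadjusted p of 0.05 in the fits with 4). Between 8 and 4 weeks, where 1.2% of assays were called, miR-451 differed by 0.19 (-0.72 to 1.10, adjusted p = 0.789).

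For miR-486 the same differences were -0.36 (95% interval -1.08 to 0.35, limma adjusted p = 0.352) at 4 weeks against 1 week, -0.14 (-0.86 to 0.57, adjusted p = 0.701) at 8 weeks against 1 week and 0.22 (-0.50 to 0.93, adjusted p = 0.709) at 8 weeks against 4 weeks. The sign for miR-486 was opposite to that of miR-451 in both comparisons with 1 week, but it turned under several scalings of the cards.

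Both calls for miR-451 were fragile. Between 4 weeks and 1 week the call was lost when any card of these groups was left out, with a difference of 1.44 without 1-week replicate 1, 1.36 without 1-week replicate 2, 1.13 without 4-week replicate 1 and 1.68 without 4-week replicate 2 (limma adjusted p from 0.0513 to 0.106). Between 8 weeks and 1 week it was lost without 1-week replicate 1 (1.63), 1-week replicate 2 (1.56) or 8-week replicate 2 (1.17, adjusted p = 0.160). Each of these fits leaves a group with 1 card, whose spread is taken to be that of the other groups. The scaling of the cards also decided the calls. Among single RNAs, all tried after the data were seen, scaling to the control snoRNA202 left 0.41 between 4 weeks and 1 week. Scaling to miR-92a, which is abundant in red cells, left 0.25 (limma adjusted p = 0.794), and neither passed the threshold. Whether miR-92a or miR-16 follows the red cell content of these livers was not tested. On the centred scale snoRNA202 itself was higher than at 1 week by 1.00 at 4 weeks (limma adjusted p = 0.0311) and by 1.18 at 8 weeks (adjusted p = 0.0332). Scaling to miR-16, also abundant in red cells, gave 3.90 at 4 weeks against 1 week (limma adjusted p = 0.000447). At 8 weeks against 1 week it gave 3.55 (limma adjusted p = 0.00215), and both passed the threshold. Scaling to U6 gave 5.29 for miR-451 and 3.52 for miR-486, both past the threshold, and the difference of U6 itself between these times was -3.88 on the centred scale. The value of miR-451 stayed above 0 under every scaling tried in both comparisons with 1 week.

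**Figure D2:**
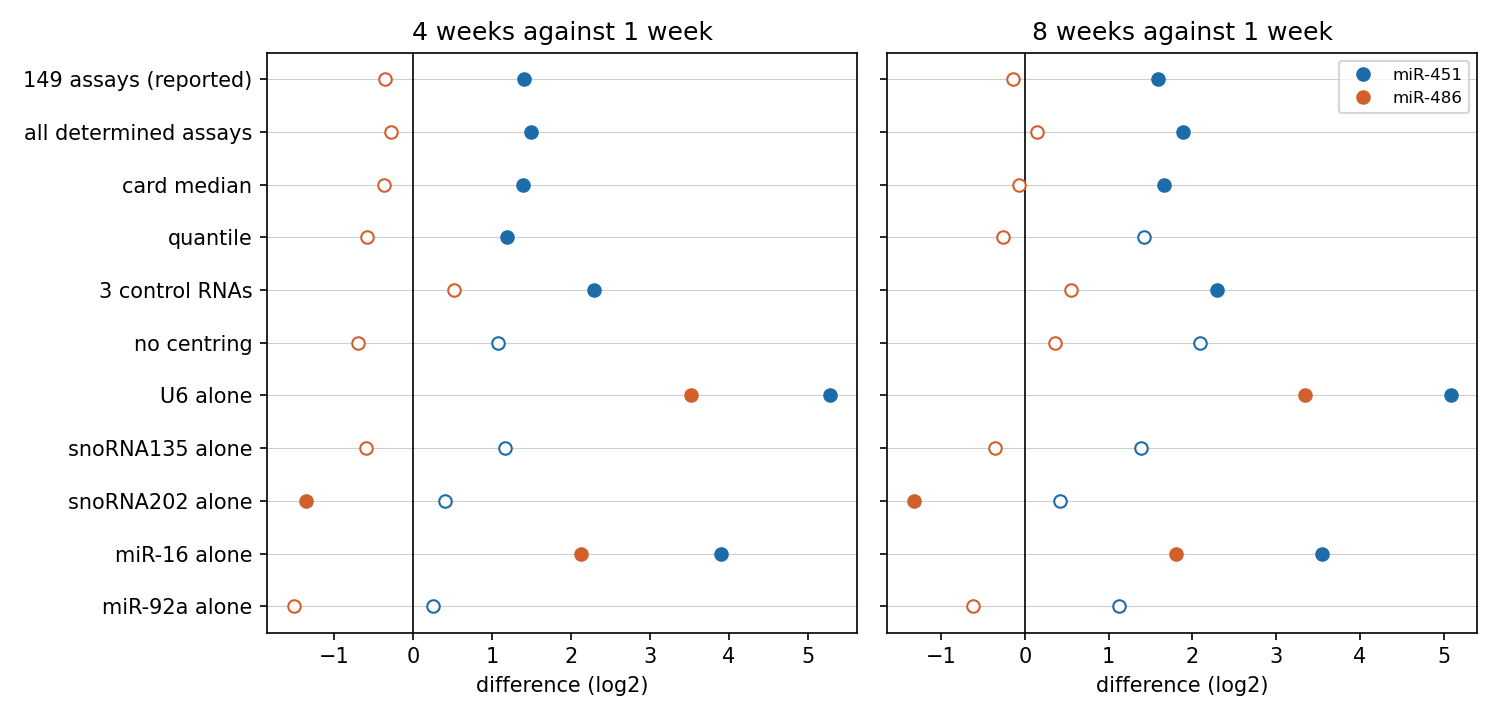
Log2 difference of miR-451 and miR-486 between 4 weeks and 1 week (left) and 8 weeks and 1 week (right) under each scaling of the cards; filled points have a limma adjusted p of 0.05 or less, open points do not. miR-451 lies above 0 in every row, from 0.25 with miR-92a to 5.29 with U6 at 4 weeks, and miR-486 falls on both sides of 0.

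The difference between the members on 1 card is the same under every scaling that shifts a whole card by 1 amount, which quantile normalization does not. The Ct of miR-486 minus that of miR-451 was -3.14 and -3.30 on the untreated cards, -4.10 and -4.41 on the 1-week cards, -2.0 and -2.98 on the 4-week cards and -2.81 and -2.22 on the 8-week cards. The 1-week cards were the lowest and the untreated cards came next, and only the 4- and 8-week cards overlapped. After quantile normalization the untreated cards, at -2.67 and -3.28, overlapped those of 4 weeks, at -2.37 and -2.88, and of 8 weeks, at -2.95 and -2.48, while the 1-week cards stayed lowest at -4.29 and -4.50. As a ratio to the untreated mean, miR-451 over miR-486 was 0.490 ± 0.0742 (SD, n = 2) for the 1-week cards, 1.75 ± 0.811 for the 4-week cards and 1.66 ± 0.474 for the 8-week cards.

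**Figure D3:**
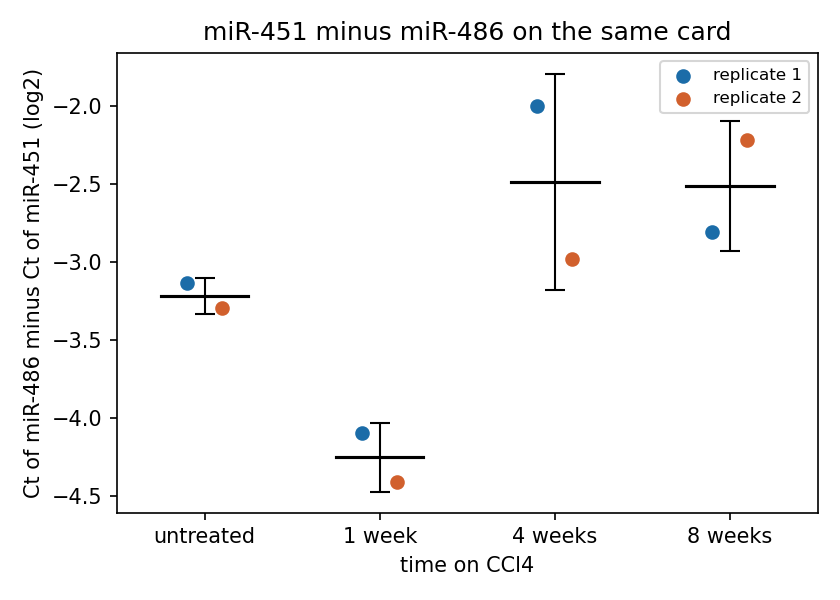
Ct of miR-486 minus Ct of miR-451 on the same card (log2, higher means more miR-451 relative to miR-486), by time on CCl4; points are cards, black bars the group mean with SD (n = 2). The 1-week cards are at -4.10 and -4.41, below the untreated cards at -3.14 and -3.30, and the widest pair is that at 4 weeks, -2.0 and -2.98.

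This difference was tested in 3 ways, of which the first was planned and the other two were added after the values were seen. The planned exact two-sided permutation test, over 28 splits, of the 6 treated against the 2 untreated cards gave 0.14 for miR-451 (p = 0.821), 0.01 for miR-486 (p = 1.0) and 0.13 for the difference between them (p = 0.786), and each p was 1.0 after adjustment over the 3 tests. The smallest p these splits allow is 0.0357. An exact permutation test over the 2520 assignments of the cards to the 4 groups, for which the smallest p is 0.00952, put 82.3% of the sum of squares of miR-451 between the groups (p = 0.0381), 37.6% for miR-486 (p = 0.562) and 85.2% for the difference (p = 0.0476). After adjustment over the 3 tests none passed 0.05, with an exact permutation p of 0.0714 for miR-451 and for the difference. The share of miR-486 was higher under each of the 5 other scalings, from 52.4% without centring to 79.1% with quantile normalization (unadjusted exact permutation p = 0.0762).

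A limma fit with each card scaled to miR-486, over the other 165 assays, gave the difference for each pair of groups. It was -1.04 at 1 week against untreated (95% interval -2.05 to -0.02, limma adjusted p = 0.102), 0.73 at 4 weeks (-0.28 to 1.74, adjusted p = 0.245) and 0.71 at 8 weeks (-0.31 to 1.72, adjusted p = 0.389), where 28.5%, 22.4% and 0.606% of assays were called. It was 1.77 at 4 weeks against 1 week (0.75 to 2.78, adjusted p = 0.0142), or 3.40-fold, and 1.74 at 8 weeks against 1 week (0.73 to 2.75, adjusted p = 0.0253), or 3.34-fold, where 40.6% and 17.6% were called. Between 8 and 4 weeks, with 0.606% of assays called, it was -0.03 (-1.04 to 0.99, adjusted p = 0.979). The 4-week call was lost without 1-week replicate 1 (1.92), 1-week replicate 2 (1.61) or 4-week replicate 1 (1.28), and the 8-week call without 1-week replicate 1 (1.90), 1-week replicate 2 (1.59) or 8-week replicate 2 (1.45). The result of this fit and that of the permutation test over the 4 groups therefore lie on different sides of 0.05.

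**Figure D4:**
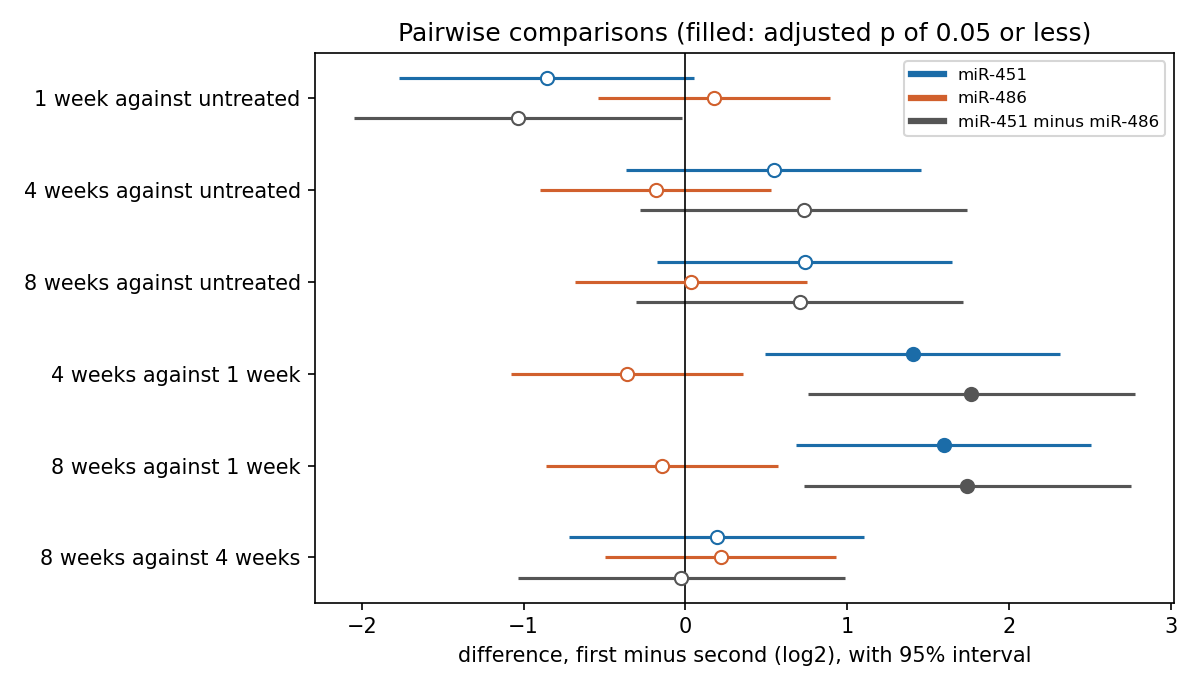
Log2 difference (first group minus second, with 95% interval) of miR-451, miR-486 and miR-451 minus miR-486 in the 6 pairwise comparisons by limma, with filled points at an adjusted p of 0.05 or less. The filled points are miR-451 and the difference at 4 weeks against 1 week (1.40 and 1.77) and at 8 weeks against 1 week (1.60 and 1.74).

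No correlation between the members was detected over the 8 cards, and its sign turned with the centring. Pearson's r of the centred values was -0.33 (exact permutation p = 0.421) and Spearman's rho -0.40 (exact permutation p = 0.327). Without the 2 cards farthest from the median of miR-451, which were both 1-week cards, r was 0.12 (exact permutation p = 0.819). With the Ct as deposited, r was 0.55 (exact permutation p = 0.163) and rho 0.50 (exact permutation p = 0.216), and each of the 4 p-values over all 8 cards was 0.421 after adjustment. With group means removed, r of the centred values was 0.21. The labels name no run or date for the cards, so no value within a batch can be given.

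The assays most like miR-451 over the 8 cards were let-7c, let-7e and let-7b, with r of 0.95, 0.91 and 0.90, while miR-486 ranked 102 of 165. These let-7 miRNAs differ in few bases, and how far their assays detect each other was not tested. Being chosen for their likeness, they are described without a test. let-7c was at 0.40 and -1.35 on the untreated cards, -2.67 and -2.37 on the 1-week cards, 0.57 and 0.98 on the 4-week cards and -0.01 and 1.69 on the 8-week cards. As with miR-451, its 1-week cards were the lowest of the 8 and replicate 2 at 8 weeks was the highest. The log2 differences of let-7c were 3.30 at 4 weeks and 3.37 at 8 weeks against 1 week, larger than those of miR-451. For miR-486 the most similar assays were miR-467b (r = 0.79), miR-337-3p (0.73) and miR-574-3p (0.68), and miR-451 ranked 141. All these values share the centring of their card, which can itself make assays vary together.

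**Figure D5:**
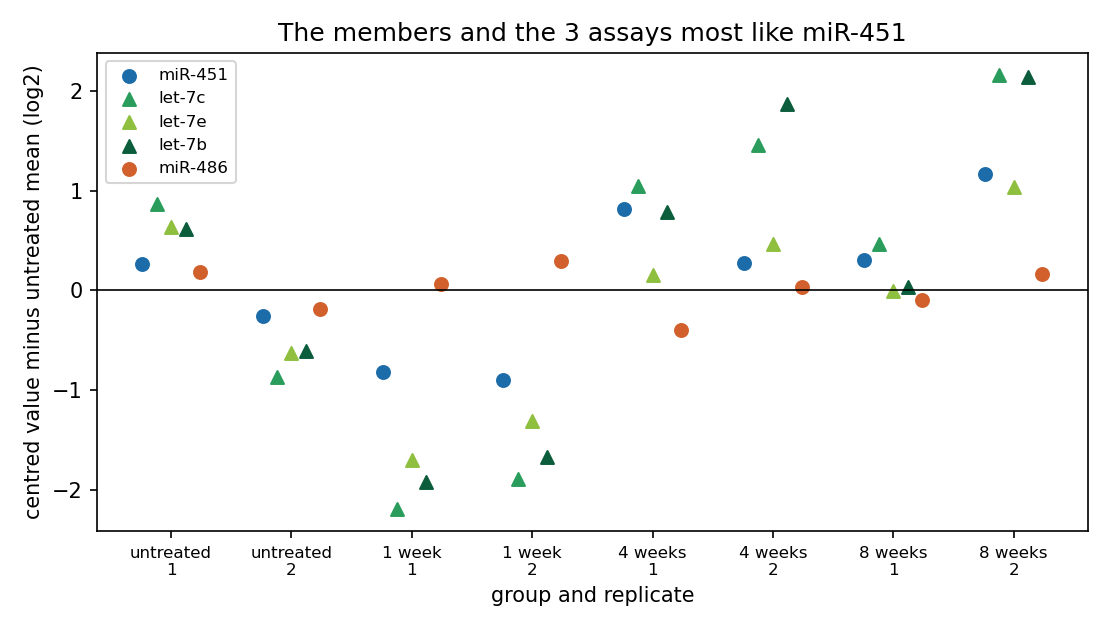
Centred value of miR-451, miR-486, let-7c, let-7e and let-7b on each card, less the mean of the untreated cards (log2), by group and replicate. The let-7 assays and miR-451 lie below 0 on both 1-week cards, with let-7c the lowest, and miR-486 stays near 0.

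On the centred scale, 0 of the other miRNAs abundant in red cells were called higher in any of the 6 comparisons by limma. Of these, miR-92a at 4 weeks against 1 week was higher at an unadjusted limma p of 0.0481. In all tested assays, 18.1%, 13.3% and 2.41% were called higher at 1, 4 and 8 weeks against untreated liver, 21.7% and 10.2% at 4 and 8 weeks against 1 week, and 1.2% were called in either direction at 8 weeks against 4 weeks. The control RNAs used for scaling were U6, snoRNA135 and snoRNA202, taken as a mean. On the centred scale these differed by -3.88, 0.24 and 1.00 at 4 weeks against 1 week, so this scaling is not separate from that to U6. With them, 2 of the red cell miRNAs, miR-92a and miR-25, were called higher at 4 weeks against 1 week, beside 43.4% of all assays tested. At 8 weeks against 1 week 1, miR-25, was called higher, beside 27.7%. Of 5 in a list drawn up for this purpose, miR-144, the neighbour of miR-451, was not among the listed assays and miR-363 was determined on 0 cards, so that 3 were tested. At 4 weeks against 1 week, 1 of the 3 was called, lower, beside 47% of all assays in either direction and 25.3% lower. miR-16 was the member of the list called, and in the direction opposite to miR-451, with log2 differences of -2.49 at 4 weeks (limma adjusted p = 0.00903) and -1.95 at 8 weeks (adjusted p = 0.0332) against 1 week and -1.66 at 4 weeks against untreated liver (adjusted p = 0.0426). With quantile normalization 0 of the list were called lower in any of these comparisons. Without centring or with the control RNAs, only the call at 4 weeks against 1 week remained. The call at 8 weeks against 1 week was also lost with the mean of all determined assays, and that against untreated liver with the card median. miR-16 is also made by most other cell types. miR-92a and miR-25, of the related clusters miR-17-92 and miR-106b-25, were not called in any comparison on the centred scale. At 4 weeks against 1 week their log2 differences had the sign of miR-451, 1.15 for miR-92a (95% interval 0.01 to 2.29, limma adjusted p = 0.0849) and 0.84 for miR-25 (-0.19 to 1.87, adjusted p = 0.145). The list's median at 4 weeks against 1 week was 0.84, beside -0.03 for all tested assays. miR-23a, against which miR-451 is often set to gauge haemolysis, was determined on 0 cards.

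Of 6 miRNAs known to fall as red cells mature, 4 were higher at 1 week than in untreated liver, 2 at 4 weeks and 0 at 8 weeks, beside 18.1%, 13.3% and 2.41% of all tested assays. At 1 week these were miR-150 (1.97), miR-155 (1.40), miR-222 (1.20) and miR-223 (2.06), of which miR-150, miR-155 and miR-223 are also leukocyte miRNAs. The list's median at 1 week was 1.30, beside -0.09 for all tested assays. The 4 higher at 1 week became 2 with the mean of all determined assays, 2 with the control RNAs and 0 without centring. Of all tested assays, 10.8%, 13.3% and 2.41% were higher under these scalings. With U6 the 4 became 0, and 2 were lower, as were 75.2% of all tested assays. The 2 higher at 4 weeks became 3 with the control RNAs and 0 without centring, beside 27.1% and 0.602% of all tested assays. With U6 they became 5, where nearly all assays called were higher. The 0 at 8 weeks became 1 with the control RNAs, beside 6.63% of all tested assays. Against 1 week, where miR-451 was called higher, 3 of the 6 were lower at 4 weeks and 3 at 8 weeks (list medians -0.67 and -1.06), beside 25.3% and 13.9% of all tested assays. These were miR-24 (-1.49 and -1.20), miR-150 (-1.84 and -1.94) and miR-222 (-0.98 and -1.54), while miR-221 was higher at 4 weeks (1.06), as were 21.7% of assays. These counts against 1 week turned with the scaling. With the control RNAs they were 2 higher and 1 lower at 4 weeks (list median 0.21), beside 43.4% and 12.0% of all tested assays. At 8 weeks they were 1 higher and 1 lower, beside 27.7% and 6.02%. Without centring 0 were called at either time. With U6 all 6 were higher at both times, as were 90.9% and 95.2% of all tested assays.

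Markers of other cells moved with the groups as well. Of 6 leukocyte miRNAs, 5 were higher than in untreated liver at 1 week (list median 1.80) and 5 at 4 weeks (1.64), led by miR-342-3p (2.55) at 1 week and miR-223 (2.77) at 4 weeks, and 0 at 8 weeks, beside 18.1%, 13.3% and 2.41% of all tested assays. Of 5 hepatocyte miRNAs, 1 was lower at 1 week, 4 at 4 weeks and 1 at 8 weeks, beside 14.5%, 16.9% and 0.602% of all tested assays. miR-802 was lower at all 3 times (-1.72, -3.28 and -2.04), and both endothelial miRNAs, miR-126-3p (-1.83) and miR-126-5p (-1.65), were lower at 4 weeks. At 4 weeks against 1 week, where miR-451 was higher, 3 of 5 hepatocyte miRNAs were lower, miR-192 (-2.18), miR-194 (-1.70) and miR-802 (-1.57), as were both endothelial miRNAs (-2.47 and -1.77) and 25.3% of all tested assays. Among leukocyte miRNAs, miR-142-3p was higher (2.20), as were 21.7% of all tested assays, and miR-150 lower. At 8 weeks against 1 week, 0 hepatocyte miRNAs were called, miR-126-3p was lower (-1.56), and the leukocyte miRNAs miR-150 and miR-342-3p (-1.53) were lower, beside 13.9% of all tested assays lower and 10.2% higher. These counts, and the shares beside them, turned with the scaling. Over all tested assays, the 22 called higher and 28 lower at 4 weeks against untreated liver became 45 and 11 with the control RNAs, and the 36 and 42 at 4 weeks against 1 week became 72 and 20. At 4 weeks against 1 week the 3 hepatocyte miRNAs lower became 1 lower and 1 higher with the control RNAs and 5 higher with U6, and the 2 endothelial miRNAs lower became 1 with the control RNAs, 0 with quantile normalization and 1 higher with U6. At 4 weeks against untreated liver the median of the hepatocyte list was below 0 under each scaling tried, from -3.33 to -0.83, with 1 to 4 of its 5 members called lower. The 5 leukocyte miRNAs higher at 1 week became 4 with the control RNAs and 0 without centring, beside 13.3% and 2.41% of all tested assays. With U6 they became 0, and 1 was lower, as were most tested assays. Fewer cells of a type and less RNA per cell cannot be told apart in whole liver, nor can blood in the vessels and erythroid cells in the tissue. The part of these cell types in the values of miR-451 was not tested.

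Of 6 miRNAs of muscle, the other source of miR-486, 1 could be tested. miR-206 was not listed, miR-1 and miR-499 were determined on 0 cards, miR-133b on 1 and miR-208 on 2, so that miR-133a was the muscle miRNA tested. The list was matched by exact name. A second miR-1 assay, rno-miR-1, was determined on 5 cards and so not tested. Its Ct was 33.37 on untreated replicate 2, 35.61 and 32.10 on the 1-week cards and 32.98 and 35.16 on the 8-week cards. miR-208b, also outside the list, was determined on 2 cards. The values that follow are those of miR-133a. Its centred values were -5.38 and -2.31 on the untreated cards, -2.10 and 1.82 on the 1-week cards, -5.11 and -5.75 on the 4-week cards and -4.51 and -7.10 on the 8-week cards. It was highest on replicate 2 at 1 week, where miR-486 was also highest at 1.09 and miR-133b was determined. The next highest centred values of miR-486, 0.98 on untreated replicate 1 and 0.96 on 8-week replicate 2, lay on cards with miR-133a at -5.38 and -7.10, the latter its lowest. Against 1 week, the log2 difference of miR-133a was -5.28 at 4 weeks (limma adjusted p = 0.0245) and -5.66 at 8 weeks (adjusted p = 0.0332), while that of miR-486 was -0.36 and -0.14. The part of muscle RNA in the values of miR-486 was not tested.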

How the data were processed

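The authors deposited raw Ct values, a cycle number without normalization, for 8 TaqMan rodent microRNA cards (pool A) run on liver RNA without pre-amplification; undetermined wells are empty. A further deposited table holds fold changes of the authors' own comparison and was not used. The methods normalize to the geometric mean of each plate and name the REST software for comparisons of qPCR data; REST was not run here. Here each card was centred on its mean Ct over the 149 assays that stayed below Ct 35 throughout, and the 166 assays determined on all cards with a mean Ct below 35 were fitted together over the 8 cards by the lmFit and eBayes functions of limma 3.58.1 (R 4.3.3; 3.47 prior degrees of freedom), with Benjamini-Hochberg adjustment within each comparison. This amounted to 6 comparisons for each of 2 members. The procedure was tested on simulated data. Permutation tests used Python 3.11.15 and scipy 1.17.1, and plots matplotlib 3.10.9. The rule for names took the members, miR-144, miR-23a, called members of the lists in the comparison described and the 3 assays most correlated with each member. For longer lists only examples are named. To account for their lists, miR-92a, miR-25, miR-363 and the muscle miRNAs not tested were added, with rno-miR-1 and miR-208b.

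The members and lists were chosen with earlier results of these data known. Added after the values were seen were the scalings to U6, snoRNA135, snoRNA202, miR-16 or miR-92a alone, the permutation test over the 4 groups and the limma fit scaled to miR-486, together with their own alternatives. The number of cards limits the precision. Same-numbered cards were not treated as pairs. The r of their deviations across assays was 0.43 between 4 and 8 weeks, but -0.39 and -0.50 for these against untreated liver, 0.10 for 1 week against untreated liver and 0.03 and 0.00 for 1 week against 4 and 8 weeks. The mature sequence is from RefSeq, GRCm38.p6; the build is not that of any deposited value, since Ct values have none.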

Additional observations from a re-analysis of the deposited data

Results flagged for a closer look

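miR-451 differed between times on CCl4, which cannot be told apart from age, by limma's test of the difference itself. It was 1.40 higher on the log2 scale at 4 weeks than at 1 week (limma adjusted p = 0.0242), where 47% of all tested assays were called. At 8 weeks it was 1.60 higher than at 1 week (limma adjusted p = 0.0320), where 24.1% were called. Both calls were lost in some of the fits that left out a single card (1.13 to 1.68 and 1.17 to 2.02 over all such fits). Both were also lost without centring and when scaled to snoRNA135, snoRNA202 or miR-92a alone. The lowest values under these scalings were 0.25 at 4 weeks and 0.42 at 8 weeks. The 8-week call was further lost with quantile normalization and with undetermined wells at Ct 40. The within-card difference between miR-451 and miR-486 was likewise higher at both times than at 1 week, in a fit added after the values were seen. It was higher by 1.77 at 4 weeks (limma adjusted p = 0.0142) and by 1.74 at 8 weeks (limma adjusted p = 0.0253). In that fit 40.6% and 17.6% of assays were called. The exact permutation test over the 4 groups, added as well, gave p = 0.0714 after adjustment both for miR-451 and for the within-card difference. No group had 4 or more cards, so no single card could be tested for standing apart.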

How the results depend on the processing

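The results were recomputed with 5 other scalings of the cards, undetermined wells at Ct 40, no limit on Ct or a stricter limit of 32, the replicate block, a fit to only the groups compared and each card left out in turn. The cause of each change was not tested. Values are log2 differences and p-values are adjusted by limma unless named otherwise.

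The call of miR-451 at 4 weeks against 1 week was lost without centring (1.07) and, among scalings added after seeing the data, with snoRNA135 (1.17), snoRNA202 (0.41) and miR-92a (0.25). At 8 weeks against 1 week it was lost with quantile normalization (1.42), without centring (2.10), with undetermined wells at Ct 40 (1.60, adjusted p = 0.0639), snoRNA135 (1.39), snoRNA202 (0.42) and miR-92a (1.12). Against untreated liver, miR-451 passed the threshold with U6 at 1 week (-3.24), 4 weeks (2.05) and 8 weeks (1.85) and with miR-16 at 4 weeks (2.21), and changed sign with snoRNA202 at 1 week (0.54) and at 4 weeks without centring (-0.30) and with miR-92a (-0.18). At 8 weeks against 4 weeks it was -0.20 with U6 and -0.35 with miR-16.

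miR-486 at 1 week turned to -0.18 with the mean of all determined assays, -0.062 with the 3 control RNAs, -0.34 without centring, -2.20 with U6 (adjusted p = 0.00389) and -0.66 with miR-16, and passed at 1.57 with snoRNA202. At 4 weeks it turned to 0.46 with the control RNAs, 1.32 with U6, 0.21 with snoRNA202 and 1.48 with miR-16, and at 8 weeks to -0.040 with all determined assays and -0.01 with miR-92a. At 4 weeks against 1 week it turned to 0.52 with the control RNAs, 3.52 with U6 (adjusted p = 2.27e-06) and 2.13 with miR-16 (adjusted p = 0.0160), both past the threshold, and also passed at -1.36 with snoRNA202 (adjusted p = 0.0128). At 8 weeks against 1 week it turned to 0.14 with all determined assays, 0.56 with the control RNAs, 0.36 without centring, 3.35 with U6 (adjusted p = 7.55e-06) and 1.81 with miR-16 (adjusted p = 0.0435), these last past the threshold, and also passed at -1.33 with snoRNA202 (adjusted p = 0.0161). At 8 weeks against 4 weeks it was -0.18 with U6 and -0.33 with miR-16.

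For any CCl4 by the exact permutation test, miR-451 turned to -0.10 with all determined assays, -0.19 with quantile normalization and -0.32 without centring, and miR-486 to -0.23, -0.0033 with the card median and -0.45 without centring. Over the 4 groups, miR-451 lost an unadjusted exact permutation p of 0.05 with all determined assays (76.7%), quantile normalization (80.5%) and no centring (66.3%). The share of miR-486, 37.6%, was 54.6%, 53.4%, 79.1%, 56.6% and 52.4% with all determined assays, the card median, quantile normalization, the control RNAs and no centring. With quantile normalization, tried for the within-card difference after the data were seen, that difference passed the limma threshold at 1 week (-1.42, adjusted p = 0.0232), turned to -0.26 for any CCl4 and lost the unadjusted exact permutation p over the 4 groups (90.2%, p = 0.0857).

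Leaving out each card in turn, miR-451 ranged from -1.12 to -0.60, 0.27 to 0.82 and 0.31 to 1.17 at 1, 4 and 8 weeks, from 1.13 to 1.68 and 1.17 to 2.02 at 4 and 8 weeks against 1 week, and from -0.24 to 0.62 at 8 against 4 weeks. miR-486 ranged from -0.0047 to 0.36, -0.40 to 0.030 and -0.15 to 0.21, from -0.58 to -0.15 and -0.28 to -0.01, and from 0.0024 to 0.43. The within-card difference ranged from -1.19 to -0.88, 0.24 to 1.22 and 0.41 to 1.00, from 1.28 to 2.26 and 1.45 to 2.04, and from -0.52 to 0.47. For any CCl4 the ranges were -0.12 to 0.40, -0.17 to 0.19 and -0.084 to 0.40. Over the 4 groups, the share was 74.6% to 92.1% for miR-451, with an unadjusted exact permutation p of 0.0571 to 0.143, 22.4% to 63.7% for miR-486, and 77.3% to 95.1% for the within-card difference, with p of 0.0381 to 0.143.

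With the replicate block, which cannot move a difference, miR-451 stayed at 1.40 and 1.60 against 1 week and no call of a member changed. The number of assays called also followed the scaling. It was 54 at 1 week (5 without centring, 126 with U6), 50 at 4 weeks (10 without centring, 84 with miR-16), 5 at 8 weeks (0 with undetermined wells at Ct 40, where 42 had an unadjusted p under 0.05, and 40 with U6), 78 at 4 weeks against 1 week (29 and 150, without centring and with U6), 40 at 8 weeks against 1 week (8 and 158, likewise) and 2 at 8 against 4 weeks (0 without centring, 18 unadjusted, and 9 with quantile normalization). The split of these calls into higher and lower turned as well. At 1 week the 30 higher and 24 lower became 18 and 33 with all determined assays, 4 and 1 without centring, 2 and 124 with U6, 34 and 8 with snoRNA135, 81 and 0 with snoRNA202, 5 and 16 with miR-16 and 11 and 0 with miR-92a. At 4 weeks the 22 and 28 became 12 and 27 with all determined assays, 45 and 11 with the control RNAs, 1 and 9 without centring, 80 and 2 with U6, 33 and 10 with snoRNA202, 83 and 1 with miR-16 and 2 and 9 with miR-92a. At 8 weeks the 4 and 1 became 1 and 0 with all determined assays, 11 and 1 with the control RNAs, 1 and 0 without centring, 40 and 0 with U6, 4 and 0 with snoRNA202 and 13 and 0 with miR-16. Between 4 weeks and 1 week the 36 and 42 became 72 and 20 with the control RNAs, 7 and 22 without centring, 150 and 0 with U6, 8 and 73 with snoRNA202, 120 and 1 with miR-16 and 6 and 51 with miR-92a. Between 8 weeks and 1 week the 17 and 23 became 21 and 12 with all determined assays, 19 and 17 with the card median, 46 and 10 with the control RNAs, 6 and 2 without centring, 157 and 1 with U6, 4 and 77 with snoRNA202 and 99 and 2 with miR-16. Between 8 and 4 weeks the 1 and 1 became 6 and 3 with quantile normalization, and 0 and 1 with all determined assays, the card median, the control RNAs, U6, snoRNA135, snoRNA202 and miR-16. Leaving out a card, the counts ran from 15 to 59, 22 to 51, 0 to 6, 30 to 75, 4 to 49 and 0 to 1 in the same order, the fits with 0 having 17 to 45 unadjusted. The median of all tested assays at 1 week moved from -0.09 to -0.45 with all determined assays, -0.33 with the control RNAs, -0.60 without centring, -2.48 with U6 and 1.31 with snoRNA202.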
